A study of Mus musculus with 768 samples.

Results

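The cells described here were Schwann cells (SCs) of the adult mouse sciatic nerve that a rule classed as non-myelinating. In each of them at most 1 of 4 genes of the mature Remak cell, C4b, F3, Entpd2 and Sparcl1, reached a set level. They were selected on measured values in each single cell, on a scale of log2(CPM + 1), where CPM is a gene's reads scaled to a common total per cell. A cell counted as non-myelinating when N, the mean over Scn7a, Ncam1, Ptn, Lgals3, Ntrk3 and Rab3b, was above M, the mean over the myelinating genes Ncmap, Prx, Pllp, Cldn19, Fam178b and Kcnk1. A non-myelinating cell was a member when fewer than 2 of C4b, F3, Entpd2 and Sparcl1, here called the mature genes, reached 100 CPM. The members were thus chosen by gate values from these data, which are described and not tested. By this rule 54 cells were members, 31 in plate 1 and 23 in plate 2, out of 379 non-myelinating cells and 768 cells in all. They are compared below with the 325 non-myelinating cells that had 2 or more mature genes (mature cells, 112 and 213) and, to place genes, with the 244 cells with N at or below M (myelinating-side cells, 161 and 83).

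Adult peripheral nerves hold glia of both kinds. Myelinating SCs (mSC) each wrap 1 segment of a large axon, while non-myelinating SCs of the Remak type, nm(R)SC, hold many small axons, mostly of pain and autonomic fibres, in troughs of their cytoplasm and make no myelin. Both come from immature SCs, which proliferate and sort axons around birth, and both can return after injury to a repair state marked by proteins such as the neurotrophin receptor p75 (Ngfr). C4b is a complement component, F3 is tissue factor, Entpd2 is an ectonucleotidase that degrades extracellular ATP, and Sparcl1 is a secreted matricellular protein.

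The libraries came from sciatic nerves of P0Cre: ReYFP: βAct-DsRed mice on a C57bl/6J background at postnatal day 60, with no treatment. The Cre is driven by a promoter of the SC lineage and marks a lineage rather than a state, so the sort kept any cell whose lineage had switched on eYFP. Single eYFP+ cells were sorted into 2 plates of 384 wells, each from its own pool of male and female animals, and libraries were made by Smart-Seq2, which has no molecular identifiers. The plate was the replicate (n = 2), and cells of a plate share their animals, so cells were not treated as replicates. After filters on genes and reads 623 cells remained, and their reads ran from 20714 to 4076083 per cell, with plate medians of 172196 and 473550.

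Members made up 21.7% of non-myelinating cells in plate 1 (exact binomial interval 15.2% to 29.3%) and 9.75% in plate 2 (6.28% to 14.3%), a mean of 15.7% ± 8.44 (SD, n = 2). The rule sets this share, and the intervals cover counting error only. Of the members, 8 in plate 1 and 6 in plate 2 had none of the mature genes at 100 CPM, and 23 and 17 had 1 of them. That 1 gene was Entpd2 in 13 and 9 members and Sparcl1 in 9 and 6, whereas C4b accounted for 1 member in each plate and F3 for 1 member of plate 2. The name lacking mature Remak genes therefore holds for C4b and F3, and only in part for Entpd2 and Sparcl1. In summed reads C4b was at 8.60 and 89.5 CPM in the members of plates 1 and 2 against 710.99 and 1425 CPM in mature cells, and 1 cell held 99.6% of the C4b reads of the plate 2 members. Entpd2 was at 926 and 509 CPM in members against 1678 and 2311 CPM in mature cells, although its exons overlap those of Npdc1 and the counting may not separate them.

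**Figure D1:**
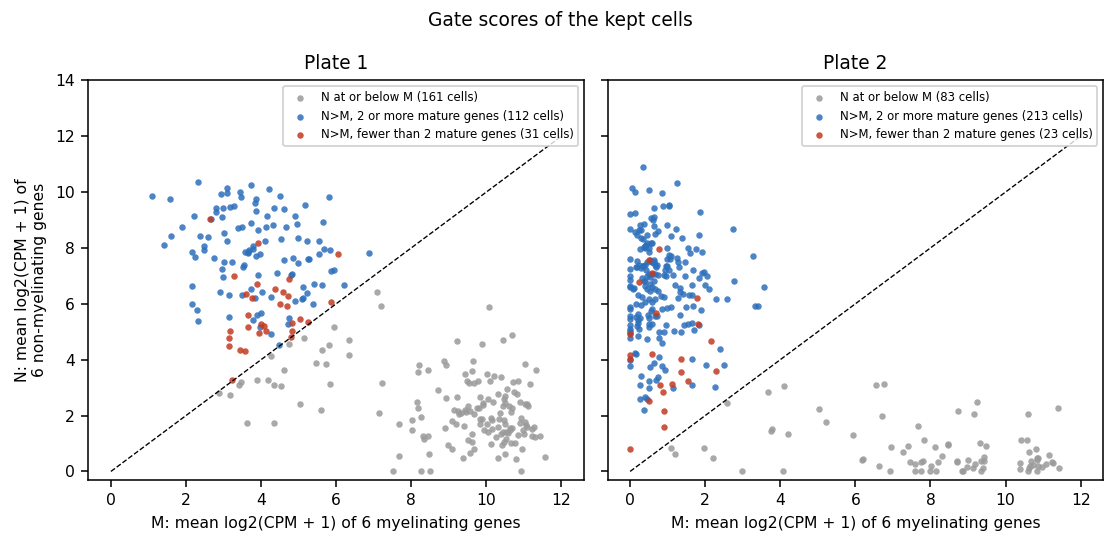
Each point is 1 of the 623 kept cells, with the mean log2(CPM + 1) of the 6 myelinating genes (M) on the x axis and of the 6 non-myelinating genes (N) on the y axis, for plate 1 (left) and plate 2 (right). The dashed line is N = M. The 54 members (red) lie lower in N than most mature cells (blue), and in plate 1 part of them lie close to the line.

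Members also stood lower than mature cells on the non-myelinating genes that separated them from myelinating-side cells. Their median N was 5.45 in plate 1 and 4.03 in plate 2, against 7.89 and 6.68 in mature cells, while the median M was alike, 4.01 and 0.788 against 3.85 and 0.626. N exceeded M by at most 1 log2 unit in 10 of 31 and 2 of 23 members, against 7 of 112 and 1 of 213 mature cells. The lowest N was 3.27 and 0.813 in members and 4.54 and 2.18 in mature cells. On the myelinating side M had medians of 9.80 and 8.69 but went down to 2.89 and 1.09. That class thus also held cells low in both scores, which the line N = M divides from members. Scn7a, a sodium channel of Remak cells, was at 285 and 413 CPM in members against 2271 and 1320 CPM in mature cells. Ptn, the growth factor pleiotrophin, was in the same range in both classes, at 888 and 889 CPM against 1052 and 543 CPM. These genes belong to the rule, and their values are a description.

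The genes given as markers of these cells were Ednrb (endothelin receptor B), Tagln2 (an actin-binding protein), Serpine2 (protease nexin 1), S100a4 (a calcium-binding protein), Thbs2 and Postn (the matricellular proteins thrombospondin 2 and periostin) and Ccnd1 (cyclin D1). They were proposed from these same cells, so they are described with no test. In summed reads all 7 were higher in members than in mature cells in both plates. Serpine2 was at 958 and 1837 CPM in members against 244 and 202 CPM in mature cells, 3.91-fold and 9.04-fold higher. On the myelinating side it was at 673 and 1067 CPM, between the other classes in both plates. Ednrb was at 937 and 573 CPM against 281 and 233 CPM, and it reached 100 CPM in 80.6% and 60.9% of members against 45.5% and 22.5% of mature cells. Ccnd1 was at 606 and 273 CPM against 505.4 and 208 CPM, a 1.20-fold and 1.31-fold difference, and in plate 2 its log2 ratio became -1.26 when the cell with most of its reads was left out of each class.

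In plate 2 the marker levels rested on few cells. The member with most reads of a gene held 73.7% of the Thbs2 reads, 79.9% of the Postn reads, 72.6% of the Ccnd1 reads and 56.6% of the Tagln2 reads of that plate's members, and the median plate 2 member had 0 CPM of Thbs2 and 0.775 CPM of Tagln2. In plate 1 the same shares lay between 11.1% and 32.6% for the 7 genes. At least 3 of the 7 markers reached 100 CPM in 29 of 31 members of plate 1 but in 9 of 23 members of plate 2. The numbers were 73 of 112 and 21 of 213 in mature cells, and 54 of 161 and 18 of 83 on the myelinating side. With every cell thinned to 20000 reads, 29 and 9 members, 78 and 25 mature cells and 56 and 17 myelinating-side cells did so. By these markers nearly all members of plate 1 and a minority of those of plate 2 answered to the given description.

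Levels of the markers differed across the number of mature genes and not only at the limit of the rule. Just inside the limit (1 mature gene, 23 and 17 cells) the Ednrb levels of the plates were 900 and 744 CPM, and just outside it (2 mature genes, 28 and 46 cells) they were 743 and 725.8 CPM. Between 2 and 3 mature genes Ednrb went from those values to 162 and 157 CPM. Serpine2 was at 1005 and 2136 CPM just inside, 856 and 528 CPM just outside, and 24.6 and 60.3 CPM in cells with all 4 mature genes. Postn and Ccnd1 went the other way at the limit in both plates, with Postn at 384 and 57.6 CPM just inside and 437 and 169 CPM just outside, and Ccnd1 at 544 and 107 CPM just inside and 700.7 and 314 CPM just outside. S100a4 was at 2877 and 486 CPM just inside and 1922 and 672 CPM just outside, and Tagln2 at 955 and 303 CPM just inside and 742 and 250 CPM just outside. Thbs2 was at 483 and 691 CPM just inside and 289 and 81.2 CPM just outside. Cells with 2 mature genes had a median N of 7.18 and 5.58, between the 5.60 and 4.03 of cells with 1 and the 8.24 and 7.10 of cells with 4.

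**Figure D2:**
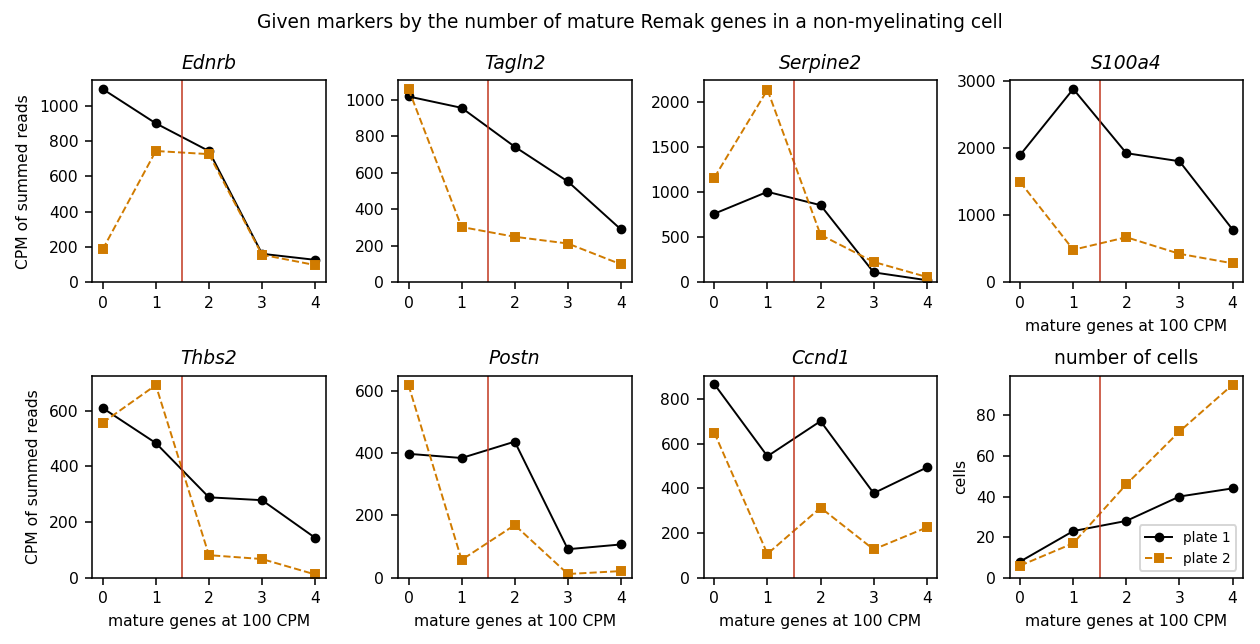
CPM of summed reads of the 7 given markers (y axes) by the number of mature genes at 100 CPM in a non-myelinating cell (x axes), for plate 1 (black circles) and plate 2 (orange squares), with the number of cells in the last panel. Members lie left of the red line, and Ednrb and Serpine2 stay near the members' level at 2 mature genes in plate 1 before they drop at 3.

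Members were SCs by their general markers. All 10 listed SC genes reached 50 CPM in the members of plate 1 and 9 of 10 in those of plate 2, and 3 or more of them reached 100 CPM in 31 of 31 and 21 of 23 member cells. Sox10, the transcription factor of the lineage, was at 636 and 311 CPM in members and at 522.4 and 239 CPM in mature cells.

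Markers of other cell types were low for most types. The 7 endothelial genes summed to 1.33 and 0.862 CPM in members, the 8 macrophage genes to 4.45 and 0.199 CPM, and the 8 lymphocyte and mast cell genes to 0.445 and 7.49 CPM, with 5 to 7 genes of each of these lists at 0. Pericyte and smooth muscle genes summed to 1.63 and 22.7 CPM, melanocyte genes to 8.75 and 1.19 CPM, and perineurial genes to 216 and 112 CPM, against 363 and 342 CPM for the last in mature cells. The 6 neuronal genes summed to 89.2 and 226 CPM in members and 41.7 and 57.0 CPM in mature cells, which in members was nearly all Tubb3, a neuronal tubulin, with 4 of 6 genes at 0. The 8 fibroblast genes summed to 2444 and 1227 CPM in members against 2268 and 769 CPM in mature cells, most of it the collagens Col3a1 and Col1a1. In plate 1 members 3 of these 8 genes were at 0, and in plate 2 members 5 were. At least 3 fibroblast genes reached 100 CPM in 3 of 31 and 1 of 23 members, and in 5 of 112 and 2 of 213 mature cells. Without these cells the edgeR log2 ratio of members over mature cells was -0.02 in place of 1.72 for the fibroblast gene Dcn and 0.76 in place of 1.08 for Col1a1, while that of Ngfr was 2.66 in place of 2.37.

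To find which genes differ between members and mature cells, raw reads were summed per plate and class and tested with edgeR's quasi-likelihood test with the plate as a block, with the gate genes left out. Of 13356 genes tested, 0 (0%) were called at an adjusted p of 0.05, and 806 had an unadjusted p below it. The lowest adjusted p was 0.128. DESeq2 on the same sums called 761 genes, 189 higher and 572 lower in members. The edgeR fit with the sums of these 2 classes alone called 20 genes (2 higher, 18 lower), and the fit on cells thinned to 20000 reads called 11 (1 higher, 10 lower). As the main fit called no gene, the genes below are given by their values in each plate. Over all genes tested, 20.3% were higher and 33.4% lower in members in both plates, and the median edgeR log2 ratio was -0.32.

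By a rule of size set after the data were seen (4-fold or more in both plates, with and without the top cell, and 50 CPM or more in the higher class), 4 of 1585 genes (0.252%) were higher in members: Igfbp3, Dclk1, Ezr and Chmp4c. Igfbp3 (chromosome 11, 7206086 to 7213923, GRCm38), a secreted protein that binds insulin-like growth factors, was at 166 and 248 CPM in members against 1.75 and 2.79 CPM in mature cells, with log2 ratios of 5.93 and 6.04. It reached 100 CPM in only 4 of 31 and 3 of 23 members, and 1 cell held 47.6% and 66.7% of the members' reads. Dclk1 (chromosome 3, 55242364 to 55539068), a microtubule-associated kinase, was at 254 and 440 CPM against 39.7 and 12.9 CPM, in 13 and 5 members at 100 CPM. Ezr (chromosome 17, 6738041 to 6782784), which encodes ezrin and links membranes to actin, was at 335 and 216 CPM against 62.8 and 17.6 CPM, in 21 and 5 members. The exons of Dclk1, Ezr and Chmp4c overlap those of another gene (Gm21954, Sytl3 and Snx16), and the split of their reads is uncertain.

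Egr2, needed for myelination, and Ngfr, which myelinating SCs switch off, were both higher in members. Egr2 (chromosome 10, 67535475 to 67542188), the transcription factor of myelination, was at 327 and 166 CPM in members, 67.6 and 36.9 CPM in mature cells and 325 and 645 CPM on the myelinating side (log2 ratios over mature cells 2.26 and 2.14). Ngfr (chromosome 11, 95568818 to 95587735) was at 251 and 393 CPM in members, 69.3 and 61.9 CPM in mature cells and 10.997 and 2.05 CPM on the myelinating side (log2 ratio over mature cells 2.37 ± 0.75 SE, edgeR adjusted p = 0.711). A single plate 2 member held 63.1% of the Ngfr reads, and without the top cells the log2 ratios were 1.49 and 1.55. Both Egr2 and Ngfr reached 100 CPM in 7 of 31 and 2 of 23 members, and 8 and 4 members had Egr2 at that level without Ngfr. Csrp2, a LIM-domain protein, was at 161 and 137 CPM in members, 58.0 and 9.65 CPM in mature cells, and 686 and 802 CPM on the myelinating side, so that members lay between the other classes in both plates. Ccnd3, cyclin D3, was at 429 and 315 CPM against 140 and 68.7 CPM in mature cells, with exons that overlap Bysl.

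The other genes at the top of the ratio were Chmp4c and Snx16, Itgb1bp1, which binds the tail of integrin beta 1, the RNA-binding protein Hnrnpll and the zinc finger gene Zfp451. Their log2 ratios lay between 1.54 and 2.46 in the plates. Itgb1bp1 was at 150 and 268 CPM in members against 36.8 and 61.8 CPM in mature cells, and at 100 CPM in 8 of 31 and 8 of 23 members. Genes at this end were chosen for ratios of 1 sign in both plates, so a kept sign says little, and some sizes depended on the limit. With members that had none of the 4 mature genes the edgeR log2 ratio of Hnrnpll was 0.08 in place of 1.96, that of Ngfr 0.48 in place of 2.37 and that of Itgb1bp1 0.64 in place of 2.07.

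By the same rule of size, 51 of 2359 genes (2.16%) were lower in members. The top cell is a larger part of 31 and 23 members than of 112 and 213 mature cells. Leaving it out therefore does not treat the directions alike. Members were also chosen for few mature genes, so the counts of higher and lower genes are not set against each other. Sfrp5 (chromosome 19, 42197971 to 42202252), a secreted Wnt antagonist, was at 72.0 and 20.6 CPM in members against 1278 and 1317 CPM in mature cells, with log2 ratios of -4.13 and -5.93. Its median was 9.76 and 0 CPM over member cells and 662 and 639 CPM over mature cells. Aldh1a1 (chromosome 19, 20492715 to 20643465), which makes retinoic acid, was at 87.5 and 84.6 CPM against 1629 and 1430 CPM and reached 100 CPM in 6 of 31 and 3 of 23 members against 75 of 112 and 121 of 213 mature cells. Smpdl3a, a phosphodiesterase, was at 1.63 and 0.199 CPM against 189 and 325 CPM, and its highest member cell had 21.6 CPM. Serpina3n, a serine protease inhibitor, was at 11.6 and 5.90 CPM against 247 and 824 CPM, and Mmd2, a Golgi membrane protein, at 15.9 and 19.6 CPM against 248 and 463 CPM. The remaining genes at this end were Sorcs2, Fndc1, Hrct1, Igf1r, Pcdh11x, Tor2a and Cp, all below 25 CPM in the members of both plates.

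Sfrp5 was called in 4 altered edgeR fits and by DESeq2, while all other altered edgeR fits called 0 genes. It had an adjusted p of 0.00555 in the edgeR fit of 2 classes, 0.000543 with thinned cells, 0.00229 without the top cell and 0.00476 with the mature genes counted at 50 CPM, while it was 0.128 in the edgeR fit described above, with a log2 ratio of -4.96 ± 0.59 SE. Smpdl3a, Dhrs3 (a retinaldehyde reductase) and Isyna1 (inositol phosphate synthase) were called lower in the first 3 of these fits. They were among the 2 higher and 18 lower calls of the 2-class fit, in which Igfbp3 was the higher gene outside the given markers. The fit without the top cell is not even between the classes. A top cell is a larger part of 31 and 23 members than of 112 and 213 mature cells. The all-gene median log2 ratio was -0.71 in that fit, against -0.32 in the main fit, so it leans towards lower calls.

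**Figure D3:**
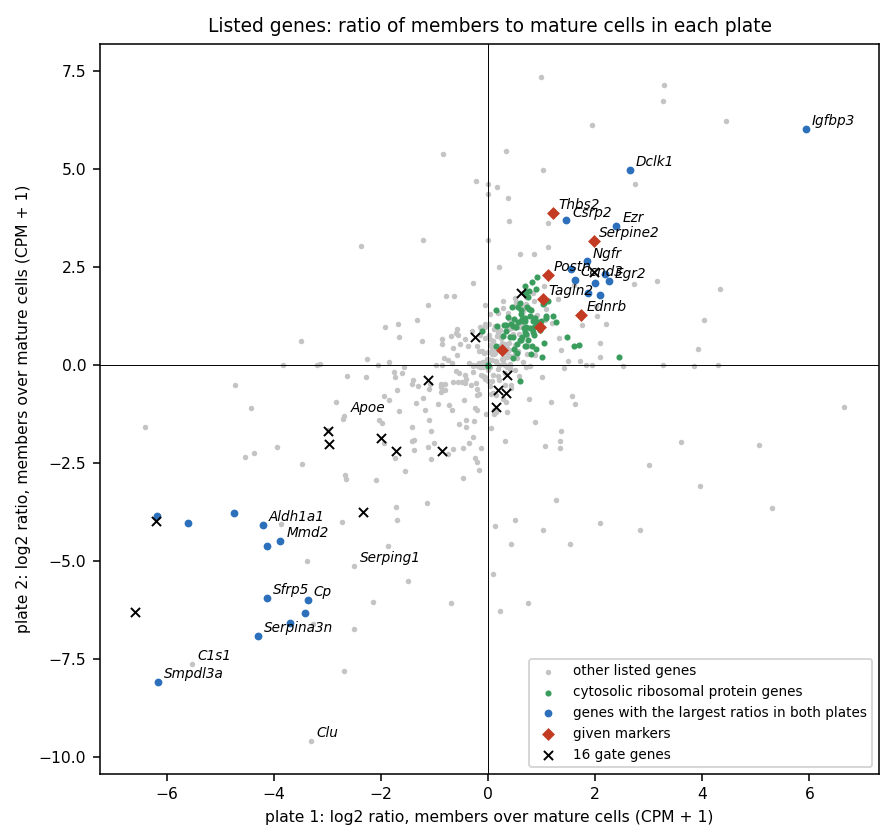
Log2 ratio of members over mature cells (from CPM + 1) in plate 1 (x axis) and plate 2 (y axis) for the listed genes, with 1 point per gene. Ribosomal protein genes (green) lie above 0 on both axes with few exceptions. The 24 genes with the largest ratios in both plates (blue) run from Smpdl3a and Sfrp5 at the lower left to Igfbp3 at the upper right. The given markers (red) lie above 0 on both axes, with Ccnd1 close to the origin. The gate genes (crosses) lie mostly at the lower left and near the centre.

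Genes of cytosolic ribosomal proteins were higher in members across nearly the whole list. Of 81 genes tested, 79 were higher in members in both plates and 0 were lower in both, beside 20.3% and 33.4% of all genes, and the median log2 ratio was 0.71 in plate 1 and 1.01 in plate 2 against -0.05 and -0.30 over all genes. None was called by edgeR (lowest adjusted p 0.409), and 33 had an unadjusted p below 0.05. Rplp0, a protein of the ribosomal stalk, was at 2447 and 2878 CPM in members, 1134 and 927 CPM in mature cells and 1306 and 1517 CPM on the myelinating side. In single cells the share of reads in these genes had a median of 5.14% (quartiles 3.73% and 6.39%) in plate 1 members and 2.72% (1.64% and 3.94%) in plate 1 mature cells. In plate 2 it was 2.48% (1.68% and 3.40%) in members and 1.17% (0.799% and 1.55%) in mature cells. The share was above the mature median in 29 of 31 and 20 of 23 members, though the ranges of the classes overlapped. It was also above that median in 68 of 161 and 65 of 83 myelinating-side cells.

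**Figure D4:**
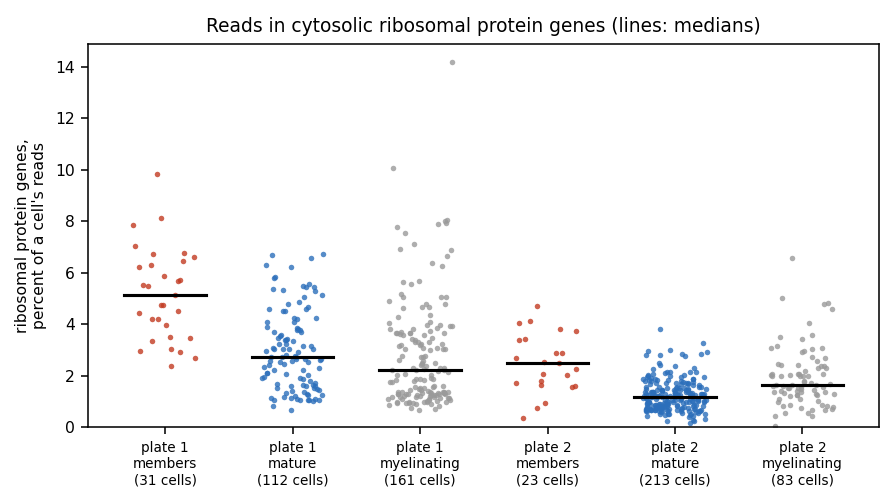
Percent of a cell's reads in cytosolic ribosomal protein genes (y axis) by plate and class (x axis), with 1 point per cell and the median as a line. Members (red) have medians of 5.14% and 2.48%, above the 2.72% and 1.17% of mature cells (blue) and the 2.23% and 1.65% of myelinating-side cells (grey).

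The ribosomal share also differed across the number of mature genes. In plate 1 its median went from 5.60% in cells with 0 mature genes through 4.52%, 4.07% and 2.97% to 1.99% in cells with all 4, and in plate 2 it was 2.14%, 2.53%, 1.39%, 1.03% and 1.21%. Read depth differed less, as members had a median of 212985 and 324368 reads against 196668 and 471196 in mature cells. At an equal 20000 reads members had a median of 2555 and 1146 detected genes against 2272 and 1202 in mature cells. Mitochondrial genes took a median of 3.73% and 1.70% of reads in members against 2.68% and 1.23% in mature cells, and 10 of 11 mitochondrially encoded genes tested were higher in members in both plates. Of 82 nuclear genes of the respiratory chain, 41 (50%) were higher and 10 (12.2%) lower in both plates, with 0 called. The shares over all genes were 20.3% and 33.4%. The part of mitochondrial share in the ribosomal difference was not tested.

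Cells with proliferation genes were seen in plate 1. Cells with both Mki67 (Ki-67) and Top2a (topoisomerase II) at 50 CPM or more numbered 4 of 31 members and 8 of 112 mature cells in plate 1. In plate 2 they were 0 of 23 members, which allows a share of up to 13.04%, and 0 of 213 mature cells, which allows up to 1.41%. Of 20 genes of S and M phase, 11 (55%) were higher and 0 lower in members in both plates. The shares over all genes were 20.3% and 33.4%. Top2a, however, was at 355 CPM in plate 1 members and 4.77 CPM in plate 2 members. Cdk1 was at 370 and 0.796 CPM in the members of plates 1 and 2. A further list held D cyclins other than Ccnd1, CDK inhibitors, Cdk4, Cdk6, Rb1 and E2f1. Of its 12 genes tested, 10 (83.3%) were higher and 2 (16.7%) lower in both plates. Their median log2 ratio was 1.419 and 0.34. Cdkn1a, which encodes the cell-cycle inhibitor p21, was at 408 and 521.2 CPM in members, 159 and 398 CPM in mature cells, and 1498 and 3048 CPM on the myelinating side. Without the cells positive for both Mki67 and Top2a the edgeR log2 ratio was 0.56 in place of 1.02 for Cdk1, 1.96 in place of 2.42 for Top2a and 1.82 in place of 1.87 for Ccnd3.

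Complement genes other than C4b were lower in members. Of 9 tested, 0 were higher and 8 (88.9%) lower in both plates, beside 20.3% and 33.4% of all genes. Their median log2 ratio was -2.10 and -2.93, and 0 were called. Serping1 (chromosome 2, 84765387 to 84775444), the C1 inhibitor, was at 174 and 69.6 CPM in members against 991 and 2434 CPM in mature cells (edgeR log2 ratio -3.81 ± 0.61 SE, adjusted p = 0.207). It was at 27.8 and 1.95 CPM in cells with 0 mature genes and at 1304 and 3027 CPM in cells with all 4. Cd59a, which blocks the terminal complement complex, was at 631 and 1263 CPM against 1616 and 2459 CPM. C3 was at 3.41 and 141 CPM against 372 and 420 CPM, and 99.8% of the reads in plate 2 members came from 1 cell. C4b, which chose the cells, is itself a complement gene, so the list is not independent of the rule in kind.

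Of 13 antigen presentation genes, 2 were higher and 7 (53.8%) lower in both plates, and of 12 interferon response genes 1 was higher and 7 (58.3%) lower, beside 33.4% of all genes lower in both plates and with 0 called in either list. H2-K1, a class I histocompatibility gene, was at 468 and 461 CPM in members against 1251 and 1747 CPM in mature cells, and Ifitm3, an interferon-induced membrane protein, at 604 and 641 CPM against 1914 and 1427 CPM. B2m, the light chain shared by class I molecules, was nearer, at a log2 ratio of -0.61 and -0.15. H2-K1 belongs to a family of near-identical genes between which reads may be split.

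Other genes of the mature Remak cell were lower with the mature genes of the rule. Of 10 such genes, 2 (20%) were higher and 8 (80%) lower in both plates, beside 20.3% and 33.4% of all genes. Their medians were -1.65 and -1.61, with 0 called. The list was chosen with earlier results of these data known, so these counts are a description and not independent of the rule. Apoe, a lipid carrier, was at 2029 and 13472 CPM in members against 13068 and 33070 CPM in mature cells. Members of plate 2 had Apoe from 13.95 to 81414 CPM, and 1 cell held 67.7% of those reads. Clu (clusterin) was at 35.6 and 0.133 CPM in members against 364 and 862 CPM. Of 9 Remak markers outside the rule, 1 (11.1%, Ngfr) was higher and 6 (66.7%) were lower in both plates. Chl1, an adhesion molecule, was at 214 and 99.6 CPM against 714.9 and 513.4 CPM, and Matn2, the matrix protein matrilin 2, whose exons overlap 9430069I07Rik, at 691 and 524 CPM against 1488 and 1387 CPM.

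Genes of the signals between axons and SCs went both ways, and not all of them encode receptors, Lgi4 among them. Of 13 genes tested, 4 (30.8%) were higher and 6 (46.2%) lower in members in both plates, beside 20.3% and 33.4% of all genes. Erbb3, the receptor for neuregulin 1, was at 514 and 443 CPM in members against 332 and 221 CPM in mature cells (edgeR log2 ratio 0.79 ± 0.36 SE, adjusted p = 0.756). S1pr3, a receptor for sphingosine 1-phosphate, was at 101 and 91.3 CPM against 645 and 692 CPM (log2 ratio -2.82 ± 0.41 SE, edgeR adjusted p = 0.167). Lgi4 and Gpr37l1 were lower as well, at 231 and 201 CPM against 606 and 911 CPM, and at 198 and 240 CPM against 762 and 946 CPM. In the endothelin system Ednrb, a given marker, was high while Ece1, the enzyme that activates endothelins, was at 87.6 and 364 CPM in members against 339 and 624 CPM.

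Genes of immature and repair SCs were mixed. Of 13 tested, 6 (46.2%) were higher and 3 (23.1%) lower in both plates, beside 20.3% and 33.4% of all genes. Their medians were 0.50 and 0.52, with 0 called. Jun, the regulator of the repair state, was at 880 and 1220 CPM in members against 590 and 1464 CPM in mature cells, in opposite directions in the plates. Dhh, a hedgehog ligand of SCs, was at 268 and 341 CPM against 189 and 237 CPM, and Id2, an inhibitor of differentiation factors, at 572 and 400 CPM against 471 and 128 CPM. Tnc, the matrix protein tenascin C, was at 125 and 129 CPM in members against 12.1 and 0.213 CPM in mature cells, but at 100 CPM in 4 and 3 members only, with 80.7% and 73.8% of the members' reads in 1 cell.

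Actin and matrix genes varied. Of 19 actin cytoskeleton genes other than Tagln2, 14 (73.7%) were higher and 3 (15.8%) lower in both plates, with medians of 0.19 and 0.54. The shares over all genes were 20.3% and 33.4%. Of 16 fibrillar and matricellular matrix genes without Postn and Thbs2, 6 (37.5%) were higher and 1 (6.25%) lower. Col1a1 was at 1068 and 578 CPM in members against 567 and 239 CPM, whereas Col3a1 was at 1353 and 505.4 CPM against 1647 and 514 CPM. Of 13 S100 and annexin genes 4 (30.8%) were higher and 5 (38.5%) lower in both plates. Anxa2 stood at 2389 and 5224 CPM against 1679 and 1839 CPM. Of 13 basement membrane genes 1 (7.69%) was higher and 8 (61.5%) lower. Of 16 genes of the response to dissociation 8 (50%) were higher and 4 (25%) lower. Fos, an early response gene, was at 7051 and 6730 CPM in members against 5831 and 6601 CPM in mature cells, close to each other in both plates.

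Against myelinating-side cells, edgeR called 16 of 13356 genes higher (0.12%) and 23 lower (0.172%) in members. Cells were separated by myelinating genes, so this contrast serves to place genes and not to find them. Pmp22, a myelin membrane protein, was at 2278 and 2300 CPM in members, 5201 and 5114 CPM in mature cells, and 52199 and 55308 CPM on the myelinating side, with an edgeR log2 ratio of -4.67 ± 0.23 SE (adjusted p = 0.000455) over the myelinating side. Members were also called lower in Mbp, Mal, Fa2h and Ugt8a, of which Fa2h and Ugt8a make myelin lipids. Mbp was at 1600 and 3021 CPM in members and 3716 and 5433 CPM in mature cells, so that for both Pmp22 and Mbp members were lowest of the 3 classes in both plates. Genes called higher included Emp1, S1pr3, Thbd (thrombomodulin), Psmb8 and Igfbp3, and 2 of the 16 were the given markers Ccnd1 and Postn, which are described only. Emp1 was at 302 and 85.02 CPM in members and 7.72 and 2.78 CPM on the myelinating side, with an edgeR adjusted p of 0.0253. In mature cells it was at 369 and 303 CPM. S1pr3, Thbd and Psmb8 were likewise lower in members than in mature cells in both plates, whereas Igfbp3 was higher. In plate 2 a single member held 93.6% of the Psmb8 reads, 66.9% of the Thbd reads and 66.7% of the Igfbp3 reads. The shares were 35.8% for S1pr3 and 33.0% for Emp1. The plate 2 level of Psmb8 in members, 313 CPM against 32.1 CPM on the myelinating side, thus rested on that cell.

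Members differed among themselves. In plate 1, 14 members had Scn7a at 100 CPM or more and 17 did not, and in plate 2 the numbers were 11 and 12. These groups were formed after the data were seen and are described with no test. Members below 100 CPM of Scn7a had Egr2 at 386 and 270 CPM against 262 and 1.03 CPM in those above it, and Egr2 reached 100 CPM in 10 of 17 and 6 of 12 of them against 5 of 14 and 0 of 11. In plate 1 a single cell held 77.5% of the Egr2 reads of the members with more Scn7a, which were at 67.2 CPM without it. Ngfr was at 382 and 618 CPM in the members with little Scn7a against 107 and 37.3 CPM in the others, and it reached 100 CPM in 8 of 17 and 3 of 12 of the former and 5 of 14 and 1 of 11 of the latter. Without the top cell of each group these levels were 244 and 248 CPM against 75.8 and 13.3 CPM. Apoe went the other way, at 1406 and 2323 CPM against 2718 and 31099 CPM, as did Prnp, the prion protein gene, at 362 and 719.1 CPM against 1179 and 2211 CPM. In plate 2 a single cell held 75.7% of the Apoe reads of the members with more Scn7a, and without the top cell of each group Apoe was at 971 and 1944 CPM against 2287 and 10627 CPM. The median ribosomal share was 5.49% and 2.77% with little Scn7a and 4.48% and 1.81% with more. In plate 2, Ednrb was the reverse of plate 1, at 406 CPM with little Scn7a and 837 CPM with more, against 1283 and 555 CPM in plate 1, and without the top cells the plate 2 levels were 266 and 311 CPM.

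The 10 plate 1 members with N over M by at most 1 had Ngfr at 639 CPM and Egr2 at 598 CPM, against 121 and 236 CPM in the 21 members farther from the limit. Their S1pr3 was at 6.48 CPM against 133 CPM, and their Serping1 at 27.7 CPM against 224 CPM. Of these 10 members, 6 had Ngfr and 8 had Egr2 at 100 CPM, and without the cell with most of its reads Ngfr was at 380 CPM against 98.9 CPM in the others and Egr2 at 515.7 against 116 CPM. Without any cells with N over M by at most 1 the edgeR log2 ratio of members over mature cells was 2.23 for Ngfr and 1.93 for Egr2.

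**Figure D5:**
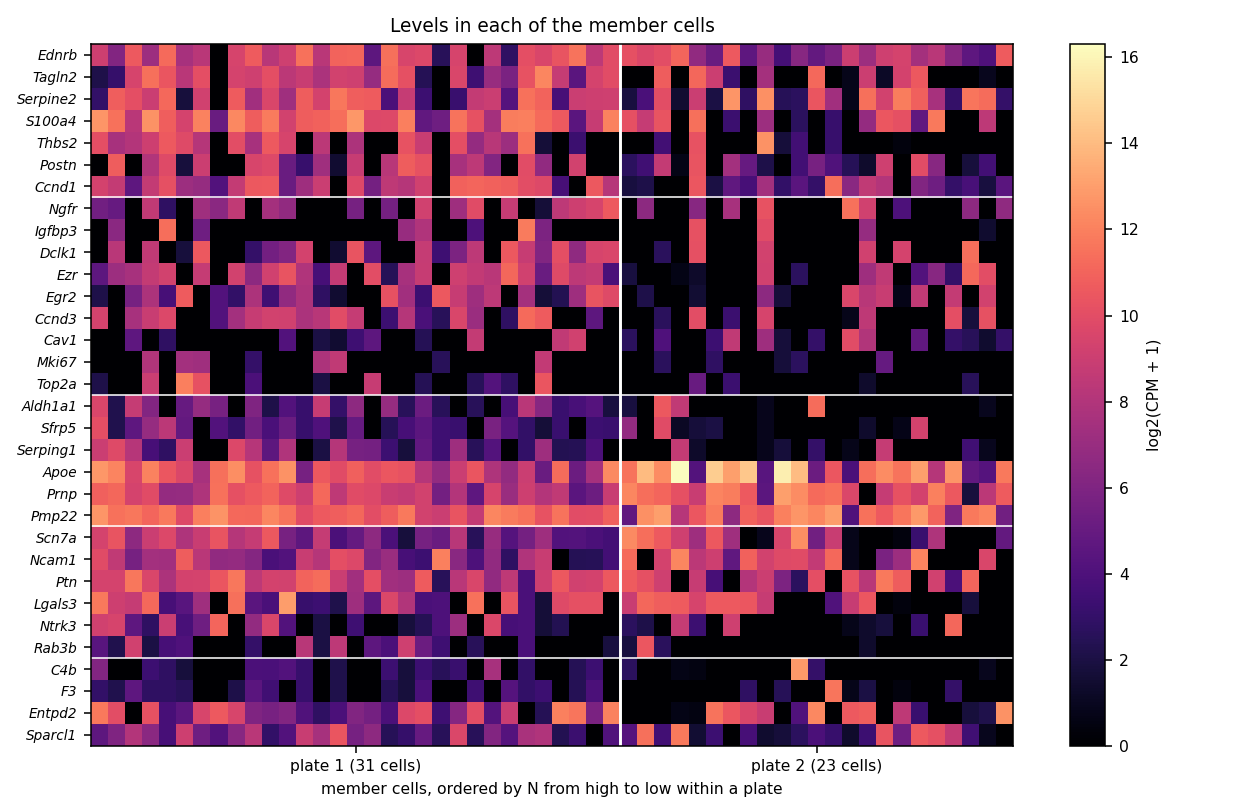
Log2(CPM + 1) (colour) of selected genes (rows) in each of the 54 members (columns), with plate 1 left and plate 2 right of the white line and cells ordered by N from high to low within a plate. From top to bottom the blocks are the 7 given markers, 9 genes that tend to be higher in members or mark division, 6 genes lower in members, the 6 non-myelinating genes of the rule and the 4 mature genes. Most plate 1 columns share Ednrb, S100a4 and Ccnd1, whereas plate 2 columns range from cells high in Apoe and Scn7a to cells with Egr2, Ezr or Serpine2.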

How the data were processed

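The authors deposited raw read counts per gene for 768 single cells (25700 genes, Smart-Seq2). The submitters' processing notes name bcl2fastq, STAR 2.6.1c, featureCounts and GRCm38.p5. The study's methods name a different STAR version and a human build, although the identifiers are mouse, and strand and multi-mapping settings are not given in the sources used here, so genes with overlapping exons are marked. Symbols came from GENCODE M21 (25664 of 25700 found).

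Cells with 1500 or more genes and 20000 or more reads were kept. No 2 cells had identical counts. Cells were sorted singly, and no doublet caller was run. Counts were summed per plate and class (6 sums) and tested with edgeR 4.0.16 (R 4.3.3), using the quasi-likelihood test, TMM, filterByExpr with a minimum count of 10, class plus plate, and Benjamini-Hochberg adjustment over all genes at 0.05. The plate was a block because all classes of a plate come from the same animals. The 16 gate genes were left out. The script was tested on simulated data, in which 200 genes were changed in members by a known fold. It called 7.5% of them at 4-fold and 60% at 16-fold, with 5 and 8 false calls. A count of 0 called genes therefore does not mean that members and mature cells were alike. Plate ratios are log2 of CPM + 1. DESeq2 1.42.0 and the other alternatives are in the closing section. The sums weigh cells by their reads.

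Members and lists were chosen with earlier results of these data known. Named genes were the gate genes and given markers, the 4 members of each list with the highest mean CPM and any called, and, since no gene was called, the 12 genes at each end by the smaller of the plate ratios (50 CPM or more in the higher class, also without the top cell). Tnc, Prnp, Isyna1, Dhrs3 and the groups by Scn7a were chosen after their values were seen. Some genes are not reported here.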

Additional observations from a re-analysis of the deposited data

How the results depend on the processing

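Against mature cells the number of genes called was 0 in the edgeR fit and in the edgeR alternatives with RLE size factors, no count filter, no replicate block, cells of 100000 or more reads, mature genes at 200 CPM, none of the 4 mature genes, N over M by more than 1, no cell-cycle cells and no cells with markers of other types. It was 1 with mature genes at 50 CPM, 11 with thinned cells, 11 without the top cell (chosen after seeing the data), 20 with 2 classes in the fit and 761 with DESeq2. Genes of the lists called numbered 0, and 3, 2, 4 and 31 with thinned cells, without the top cell, with 2 classes and with DESeq2. Against myelinating-side cells the 39 calls became 1242 with DESeq2, 174 with thinned cells and 2 with no replicate block, and, in alternatives added after seeing the data, 18 with RLE size factors, 16 with mature genes at 50 CPM, 60 with N over M by more than 1, 21 without cells of other types, 81 with no count filter, 2 with none of the 4 mature genes and 130 without the top cell. The cause of these changes was not tested. The all-gene median log2 ratio over mature cells was -0.32 (edgeR), -0.21 (RLE), 0 (DESeq2), -0.71 (without the top cell) and -1.36 (none of the 4 mature genes), while the median of the ribosomal protein genes stayed between 0.64 and 1.25 over all 15 fits. Several named genes turned sign under some alternative, among them Ece1 (-1.37 to 0.16 with mature genes at 200 CPM) and, with none of the 4 mature genes, Cdkn1a (0.87 to -1.36), Tubb3 (2.31 to -13.48) and Col3a1 (-0.19 to above 0, also without the top cell). The member share, 15.7%, was 4.70% with none of the 4 mature genes and 9.75% to 21.7% when either plate was left out. Detected genes per member at 20000 reads, 1851 on average, ranged from 1146 to 2555 when either plate was left out. A fit on 1 plate has no residual degrees of freedom, so its ratios carry no test. Only 2 plates and 54 members, some with most reads of a gene in 1 cell, limit the precision.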
